A study of Mus musculus with 15 samples.

Results

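Insulin and a group of genes that mark or build the mature beta cell were followed through the embryonic mouse pancreas. The group held 8 genes, namely Ins1, Ins2, Iapp, Mafa, Nkx6-1, Slc2a2, G6pc2 and Ucn3, chosen by name and found in the count table by their Ensembl identifiers. All 8 were among the 25292 genes of the table, and all 8 passed the filter on low counts that left 16245 genes for testing.

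The question was whether the fall of insulin under loss or block of S1pr2, a receptor for the signalling lipid sphingosine-1-phosphate (S1p), was shared by the other genes. Polyadenylated RNA was sequenced from 15 libraries in 5 groups of 3, all of the strain C57/Bl6J. Pancreata of wild-type (wt) and of S1pr2 null embryos were collected at 14.5 days post coitum (dpc). Explants from wt embryos of that stage were kept for 2 days in serum-free air-liquid interface culture without inhibitor (control), with the S1pr2 antagonist JTE013 at 15 μM (JTE), or with that dose of JTE013 plus CTGF, a secreted connective tissue growth factor, at 50 ng/ml. The null allele carries a Neo cassette in exon 1 of S1pr2 in every cell of the animal, whereas JTE013 acted on the explants alone. Explants were dorsal buds, and each library pooled the tissue of up to 3 embryos or explants, so a library is not 1 animal.

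The beta cell makes insulin as a precursor that is cut and packed into dense granules. Mice carry a pair of insulin genes, Ins1 and Ins2, while most mammals carry a single one. In the embryo, insulin-positive cells become numerous during the wave of differentiation known as the secondary transition, and they acquire full glucose sensing only after birth. Nkx6-1 and Slc2a2 are also used by pancreatic progenitor cells, so they are not confined to beta cells at this stage.

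The libraries held 11402804 to 13828737 reads assigned to genes. Between replicate libraries the chi-square of the counts was 2.35 to 23.2 per degree of freedom, and no 2 libraries held the same counts. The library JTE 3 stood apart from JTE 1 and JTE 2 (17.2 and 23.2), and values without it are given where they change. S1pr2 reads were more abundant in the S1pr2 null libraries (1263 to 1458 normalised reads) than in wt (762 to 772), and counts per gene do not show which exons the reads cover, so they do not check the disruption of exon 1. Those libraries are therefore called the libraries labelled S1pr2 null, and their genotype is taken from the label.

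Because the reads of Ins1 and Ins2 had to be told apart, their coding sequences were compared first. The Ins1 gene lies on chromosome 19 (52264323 to 52265456, plus strand, mm10) and Ins2 on chromosome 7 (142678656 to 142699510, minus strand). The coding sequences of 324 and 330 bases, from the GENCODE transcripts of that build, were 90.9% identical over 330 aligned columns, with 24 differing bases and 6 gap columns. The stretch of 90 bases with the most differences covers coding positions 8 to 97 of both genes and is shown with the 13 differing bases in capitals.
Ins1: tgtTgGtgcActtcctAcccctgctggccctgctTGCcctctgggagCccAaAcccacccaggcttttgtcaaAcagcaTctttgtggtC
Ins2: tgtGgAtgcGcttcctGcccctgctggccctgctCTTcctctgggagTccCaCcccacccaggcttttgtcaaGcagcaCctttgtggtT
The longest identical run in the coding alignment was 54 bases. Of all 50-base words in the annotated transcripts, 0.691% of those of Ins1 and 0.465% of those of Ins2 occurred in the other gene, and none of those of the remaining 6 genes occurred in another gene.

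With Ensembl identifiers in brackets, Ins1 (ENSMUSG00000035804) and Ins2 (ENSMUSG00000000215) were joined by Iapp (ENSMUSG00000041681), Mafa (ENSMUSG00000047591), Nkx6-1 (ENSMUSG00000035187), Slc2a2 (ENSMUSG00000027690), G6pc2 (ENSMUSG00000005232) and Ucn3 (ENSMUSG00000044988). These other genes lie apart from each other in the mm10 genome. Iapp is on chromosome 6 (142298423 to 142303961), Mafa on chromosome 15 (75746843 to 75747922), Nkx6-1 on chromosome 5 (101658139 to 101665226) and Slc2a2 on chromosome 3 (28697903 to 28728356). G6pc2 is on chromosome 2 (69211073 to 69227841) and Ucn3 on chromosome 13 (3940688 to 3945349). In the count table Mafa is a single exon of 1080 bases, against a coding sequence of 1077 bases.

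Promoter sequences are shown for Ins1, Iapp and G6pc2, because these genes were lower in both main comparisons but by different amounts. RefSeq windows were found for 6 of the 8 genes. Each sequence below holds the 250 bases before an annotated start in mm10. Capitals mark matches on either strand to the A box (CTAATG) and the E box (CATCTG). They also mark a part of the MARE (TGCTGA) and a part of the CRE (TGACG). These motifs are known from insulin gene control through Pdx1, Neurod1, Mafa and Creb. No match overlapped another.
Ins1, chr19:52264047-52264296, plus strand: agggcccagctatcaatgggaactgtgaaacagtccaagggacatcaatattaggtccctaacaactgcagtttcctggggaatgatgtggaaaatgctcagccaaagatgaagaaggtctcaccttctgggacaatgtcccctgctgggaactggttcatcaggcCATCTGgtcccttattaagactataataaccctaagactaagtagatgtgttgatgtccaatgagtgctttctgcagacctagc
Iapp, chr6:142298175-142298424, plus strand: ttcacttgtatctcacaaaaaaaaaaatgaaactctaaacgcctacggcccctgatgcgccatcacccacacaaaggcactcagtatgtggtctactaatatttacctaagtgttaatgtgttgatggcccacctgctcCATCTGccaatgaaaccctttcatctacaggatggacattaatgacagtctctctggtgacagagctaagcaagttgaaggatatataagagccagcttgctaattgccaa
G6pc2, upstream start, chr2:69210823-69211072, plus strand: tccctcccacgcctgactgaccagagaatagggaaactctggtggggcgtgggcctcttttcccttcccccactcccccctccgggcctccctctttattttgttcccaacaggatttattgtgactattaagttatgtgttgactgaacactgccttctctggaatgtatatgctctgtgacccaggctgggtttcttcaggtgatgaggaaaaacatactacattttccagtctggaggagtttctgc
G6pc2, downstream start, chr2:69219699-69219948, plus strand: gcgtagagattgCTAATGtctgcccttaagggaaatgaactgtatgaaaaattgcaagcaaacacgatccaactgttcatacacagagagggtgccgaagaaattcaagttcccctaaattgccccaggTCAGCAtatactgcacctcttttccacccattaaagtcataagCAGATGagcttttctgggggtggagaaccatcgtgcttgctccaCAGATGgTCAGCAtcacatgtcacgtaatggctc
The Ins1 and Iapp windows each held 1 E box, 84 and 111 bases before the start. The window at the downstream start of G6pc2 held 5 matches, of which 1 was an A box, 2 were E boxes and 2 were MARE parts. The upstream window of G6pc2 held none. Among the windows not shown, that of Ucn3 held 1 E box, 87 bases before the start. That of Nkx6-1 held 1 MARE part and 1 CRE part, and that of Slc2a2 held no match. Of 32851 promoter windows of the same length, 6.36% held an A box, 14.4% an E box, 16.1% a MARE part and 17.8% a CRE part. These are matches of letters and not sites of binding.

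The lower level of beta cell transcripts in the libraries labelled S1pr2 null went beyond insulin, but not to all 8 genes. Compared with wt, 6 genes were lower (Ins1, Ins2, Iapp, Mafa, G6pc2 and Ucn3) and 0 were higher by the quasi-likelihood test of edgeR. Of all genes tested, 13.3% were called lower and 12.6% higher in this comparison. The median log2 fold change was −2.76 over the 8 genes and −0.01 over all genes tested. In bulk tissue, fewer beta cells and less RNA per beta cell cannot be told apart. In JTE explants 6 genes were lower than in control (Ins1, Ins2, Iapp, Mafa, Slc2a2 and G6pc2) and 1 was higher (Ucn3), against 26.2% lower and 25.9% higher among all genes tested. The median was −1.04 over the 8 genes and 0 over all genes.

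**Figure D1:**
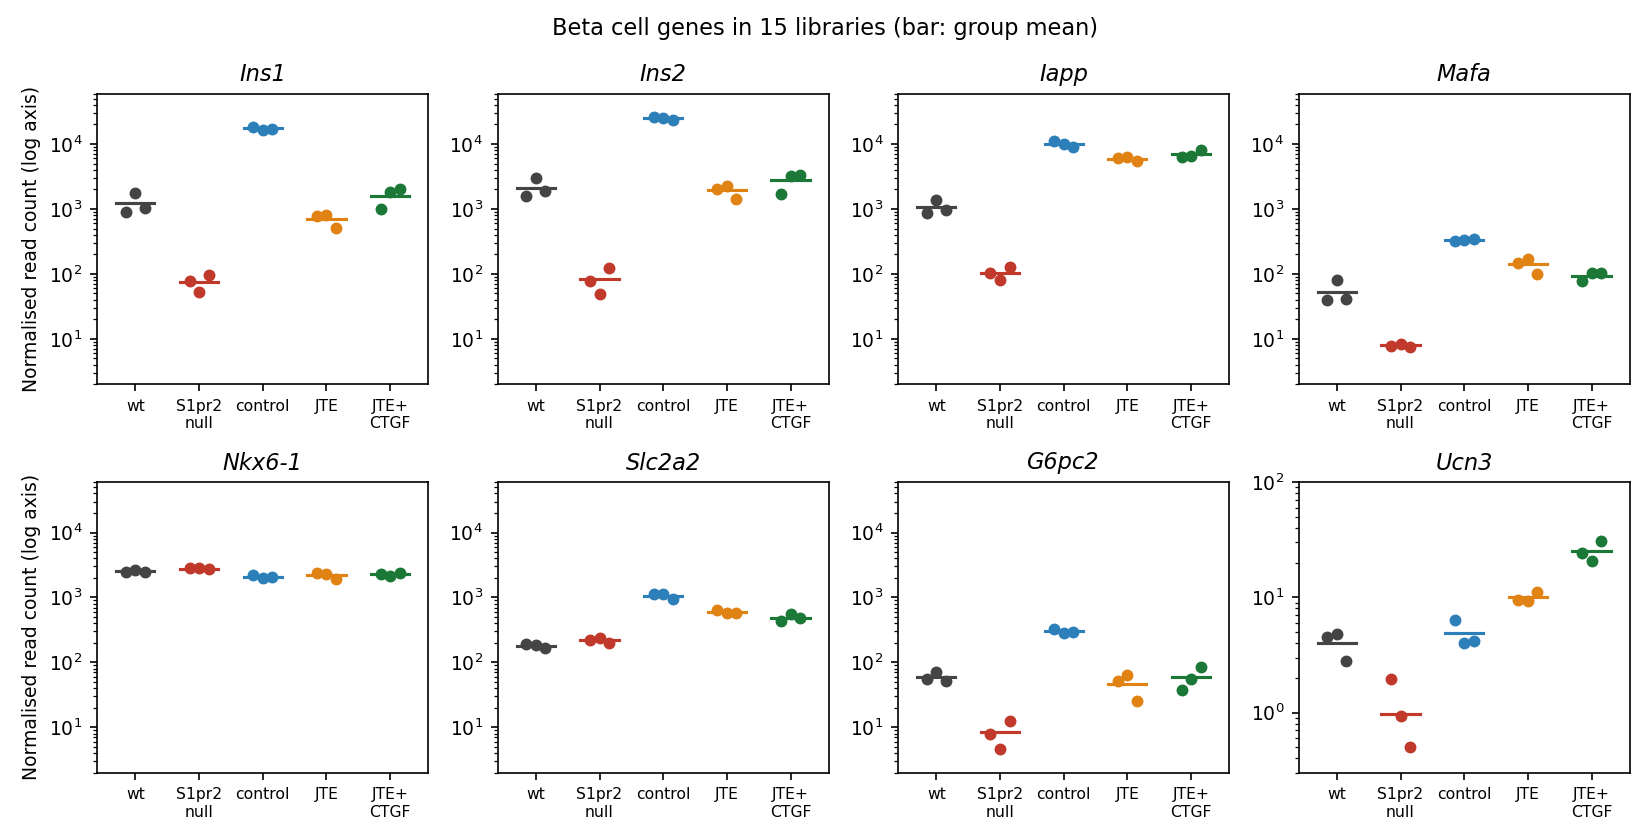
Normalised read counts (log axis) of the 8 genes in each of the 15 libraries, by group, with a bar at the group mean. The Ucn3 panel has its own axis, and its library at 0 reads is drawn at 0.5. The insulin panels show the 3 control libraries at 16502 to 26227 normalised reads and the libraries labelled S1pr2 null at 49.9 to 124. The Nkx6-1 points lie between 1942 and 2873 in all 15 libraries.

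Among the hormones, Ins1 stood at 908, 1761 and 1044 normalised reads in the wt libraries and at 76.5, 52.6 and 95.9 in those labelled S1pr2 null. It was 16.5-fold lower there (log2 fold change −4.03 ± 0.32 SE, edgeR adjusted p = 2.53e-07). Ins2 stood at 1576, 2955 and 1867 in wt and at 77.5, 49.9 and 124 in the libraries labelled S1pr2 null, 25.5-fold lower (−4.65 ± 0.33 SE, edgeR adjusted p = 8.23e-08). The groups did not overlap for either gene, and wt 2 was the highest wt library for both. Both genes were higher in control explants than in wt. These explants held 18526, 16502 and 17256 normalised reads of Ins1, 14.1-fold above wt (3.82 ± 0.26 SE, edgeR adjusted p = 2.15e-09), and 26227, 25296 and 23348 of Ins2, 11.7-fold above wt (3.55 ± 0.27 SE, edgeR adjusted p = 9.04e-09). Insulin transcripts took 0.319% to 0.339% of all reads in control explants, 0.0213% to 0.0399% in wt and 0.000882% to 0.00189% in the libraries labelled S1pr2 null.

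With JTE, Ins1 was at 792, 807 and 506 normalised reads, 24.8-fold below control (−4.64 ± 0.27 SE, edgeR adjusted p = 8.16e-10). Ins2 was at 2056, 2275 and 1447, 13.0-fold below control (−3.70 ± 0.27 SE, edgeR adjusted p = 1.14e-08). The treated explants held insulin levels near those of uncultured wt pancreata. All 3 JTE libraries lay below the wt range for Ins1, and 2 of the 3 lay within it for Ins2.

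Within the pair, the level of Ins1 relative to Ins2 shifted in opposite directions in the 2 settings, while both genes were lower in each. The Ins1 count per Ins2 count within a library was 0.577 in wt (0.559 to 0.596) and 0.932 in the libraries labelled S1pr2 null (0.777 to 1.05). It was 0.698 in control explants (0.652 to 0.739) and 0.363 with JTE (0.350 to 0.386). Relative to Ins2, Ins1 was thus 1.61-fold above wt in the libraries labelled S1pr2 null, and 1.92-fold lower with JTE than in control. Neither pair of groups overlapped. The 2-sided exact permutation p was 0.1 in both, which is the smallest that 3 against 3 libraries allow (adjusted p = 0.1 over 5 comparisons). With JTE and CTGF the ratio was 0.580 (0.561 to 0.590), between those of JTE and control.

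Iapp, which encodes islet amyloid polypeptide, a peptide released together with insulin, followed insulin in the libraries labelled S1pr2 null but far less in JTE explants. It stood at 874, 1388 and 955 normalised reads in wt and at 105, 80.3 and 129 in the libraries labelled S1pr2 null, 10.2-fold lower (−3.35 ± 0.19 SE, edgeR adjusted p = 4.11e-09). Control explants held 11240, 9978 and 8971, and JTE explants held 6045, 6254 and 5556. The groups did not overlap in either comparison. The fall with JTE was 1.69-fold (−0.76 ± 0.14 SE, edgeR adjusted p = 2.68e-04). Where Ins2 of JTE explants lay near its wt level, Iapp was at 5556 normalised reads or more in each JTE library. It was at 1388 or fewer in each wt library.

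The Iapp count per insulin count (Ins1 and Ins2 summed) shows the same contrast within each library. It was 0.324 in wt and 0.681 in the libraries labelled S1pr2 null, a 2.10-fold difference. It was 0.237 in control explants and 2.30 with JTE, a 9.74-fold difference. In all 3 JTE libraries Iapp reads outnumbered insulin reads (2.03 to 2.84 per insulin read). In no library of wt, control or S1pr2 null did they (0.221 to 0.786). The exact permutation p was 0.1 in both comparisons, the smallest possible, with an adjusted p of 0.115 over 30 ratios of this kind. Without the library JTE 3 the log2 difference between JTE and control was 3.13 in place of 3.28.

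**Figure D2:**
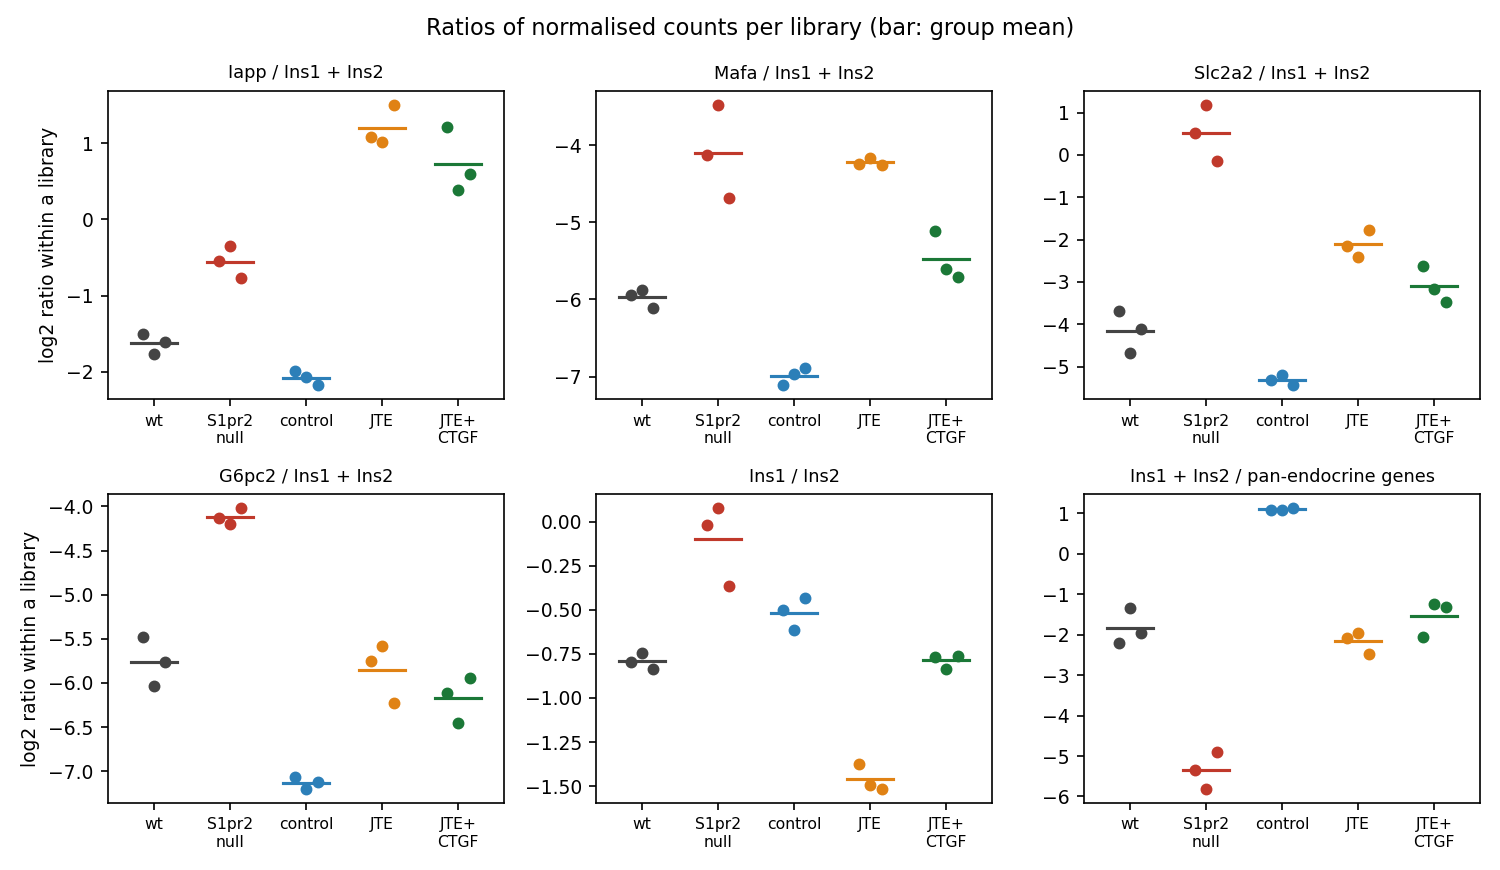
Log2 ratios of normalised counts within each of the 15 libraries, by group, with a bar at the group mean. The Iapp panel shows the 3 JTE libraries at 1.02 to 1.51 and the 3 control libraries at −2.18 to −1.99, and the Ins1 panel shows the libraries labelled S1pr2 null above wt and the JTE libraries below control.

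The transcription factor Mafa, an activator of the insulin genes in mature beta cells, was lower in both settings. It stood at 39.6, 79.5 and 41.3 normalised reads in wt and at 7.85, 8.31 and 7.57 in the libraries labelled S1pr2 null (8 or 9 reads each). This is a 6.76-fold fall (−2.73 ± 0.35 SE, edgeR adjusted p = 3.41e-05). Control explants held 323, 334 and 341, and JTE explants held 149, 171 and 101. The groups did not overlap, and the fall with JTE was 2.37-fold (−1.25 ± 0.19 SE, edgeR adjusted p = 3.31e-05). Relative to insulin, Mafa was 3.67-fold above wt in the libraries labelled S1pr2 null and 6.81-fold above control with JTE (exact permutation p = 0.1 each, the smallest possible).

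Nkx6-1, a homeodomain factor of progenitors and beta cells, was not called in either setting. It stood at 2503, 2664 and 2506 normalised reads in wt and at 2873, 2800 and 2699 in the libraries labelled S1pr2 null, where all 3 were above wt. The log2 fold change was 0.13 with a 95% interval of −0.02 to 0.27 (edgeR adjusted p = 0.189). It was called higher (edgeR adjusted p = 0.0284) where only the 6 libraries of this comparison were fitted. Control explants held 2228, 2025 and 2039 and JTE explants 2397, 2273 and 1942, which overlap. The log2 fold change there was 0.07 with an interval of −0.07 to 0.22 (edgeR adjusted p = 0.406). Without the library JTE 3 it was 0.15 and called (edgeR adjusted p = 0.0402). The interval of either comparison thus leaves out a fall as large as that of any other gene that was lower.

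Slc2a2, which encodes the glucose transporter Glut2, moved in JTE explants and was not called between the genotypes. It stood at 192, 184 and 166 normalised reads in wt and at 221, 235 and 199 in the libraries labelled S1pr2 null. All 3 of the latter were above wt, with a log2 fold change of 0.27 and a 95% interval of 0.03 to 0.51 (edgeR adjusted p = 0.0903 over all genes). It was called higher where only the 6 libraries of this comparison were fitted (0.28, edgeR adjusted p = 0.0391). In control explants it rose to 1130, 1131 and 933, 5.90-fold above wt (2.56 ± 0.10 SE, edgeR adjusted p = 2.37e-12). JTE explants held 642, 583 and 573, 1.78-fold below control (−0.83 ± 0.09 SE, edgeR adjusted p = 9.31e-07), and still lay above every wt library.

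G6pc2, a glucose-6-phosphatase catalytic subunit of islets, had the pattern across the 15 libraries most like that of insulin, though its falls were smaller. It stood at 54.9, 70.9 and 52.6 normalised reads in wt and at 7.85, 4.62 and 12.6 in the libraries labelled S1pr2 null (5 to 15 reads), 7.11-fold lower (−2.79 ± 0.40 SE, edgeR adjusted p = 8.72e-05). Control explants held 332, 284 and 290, and JTE explants held 51.8, 63.3 and 25.1. This is a 6.45-fold fall (−2.70 ± 0.26 SE, edgeR adjusted p = 2.8e-07). The groups did not overlap, and the 2 falls were close in size. Relative to insulin, G6pc2 was 3.12-fold above wt in the libraries labelled S1pr2 null and 2.42-fold above control with JTE (exact permutation p = 0.1 each, the smallest possible). The Iapp ratio moved less than that of G6pc2 between the genotypes and more with JTE. As for insulin, the JTE explants held about as many reads as wt. Across the 15 libraries the log2 level of G6pc2 had a Pearson r of 0.99 with the mean log2 level of Ins1 and Ins2, and r was 0.93 for Mafa, 0.86 for Iapp, 0.72 for Slc2a2, 0.45 for Ucn3 and −0.74 for Nkx6-1. These coefficients describe libraries that fall into 5 groups, and they share library and depth.

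Ucn3, which encodes urocortin 3, a hormone that appears in beta cells as they mature, was close to the limit of detection. The wt libraries held 5, 5 and 3 reads, and those labelled S1pr2 null held 2, 1 and 0. The summed reads gave a ratio of 4.43 with an exact 95% interval of 1.22 to 24.2, which covers counting error only. The call (edgeR adjusted p = 0.0361) was lost with DESeq2 (adjusted p = 0.11), without the filter on low counts (edgeR adjusted p = 0.0623), and in 4 of 15 fits with 1 library omitted (wt 1, wt 2, S1pr2 null 2 and S1pr2 null 3, with edgeR adjusted p up to 0.204). Control explants held 6, 4 and 4 reads, JTE explants 9, 9 and 12, and explants with JTE and CTGF 21, 18 and 26. The rise with JTE (1.03 ± 0.40 SE, edgeR adjusted p = 0.0419) was lost with DESeq2 (adjusted p = 0.171), without the filter and in 8 of these 15 fits. Those omitted JTE 1, JTE 2, JTE 3, control 2, control 3, wt 1, S1pr2 null 2 or JTE with CTGF 1, and the edgeR adjusted p went up to 0.121. The rise with JTE and CTGF was 5.18-fold above control (2.35 ± 0.35 SE, edgeR adjusted p = 2.09e-05) and kept its call in every fit that gave a value. Ucn3 was the only one of the 8 genes to be called higher than control in both inhibitor groups.

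**Figure D3:**
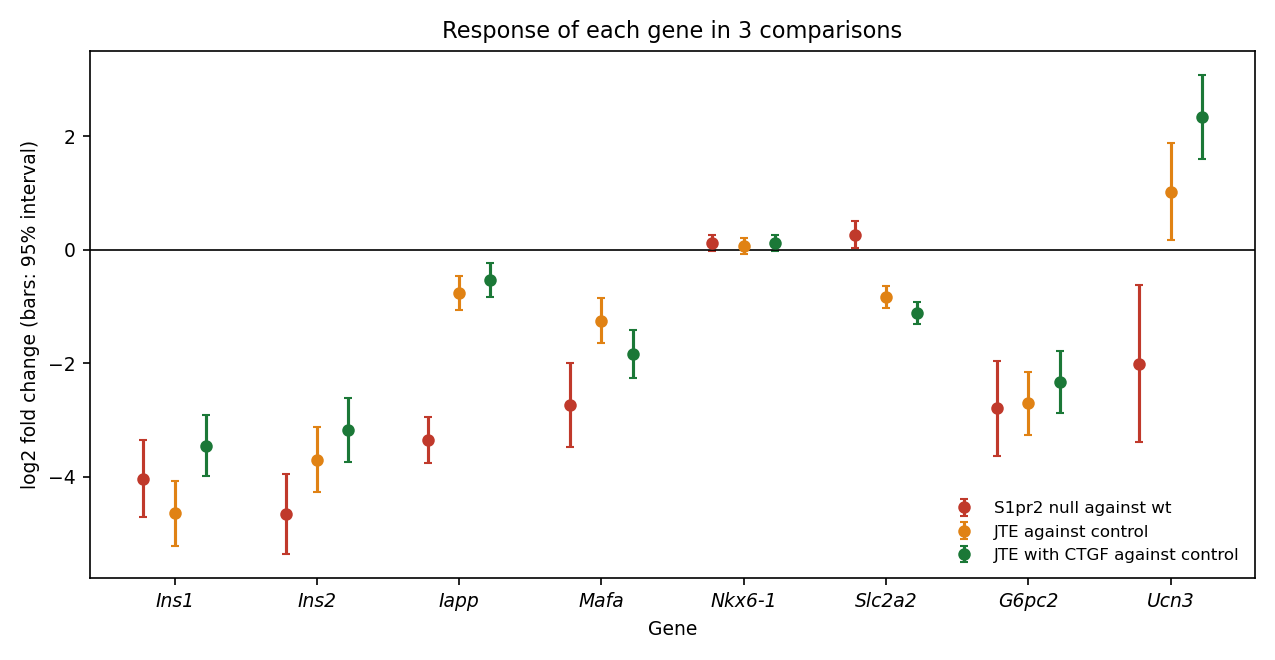
Fitted log2 fold change of each of the 8 genes in 3 comparisons, with 95% intervals from the edgeR fit. Ins1, Ins2 and G6pc2 lie below −2 in all 3, Iapp lies at −3.35 in the libraries labelled S1pr2 null but at −0.76 and −0.53 in the inhibitor groups, Nkx6-1 lies near 0, and Ucn3 lies above 0 in both inhibitor groups.

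The difference between the settings was tested directly, with the response to JTE taken less that of the null genotype. Of the 8 genes, 1 was called lower and 3 higher in this contrast, against 21.5% lower and 21.5% higher among all genes tested. Iapp fell less with JTE by 2.59 ± 0.24 (SE, log2, edgeR adjusted p = 3.85e-07), and Mafa fell less by 1.48 ± 0.42 (SE, edgeR adjusted p = 0.00889). The value was 3.03 ± 0.77 for Ucn3 (SE, edgeR adjusted p = 0.00431), on the few reads given above. Slc2a2 was lower with JTE by 1.10 ± 0.14 (log2 value −1.10, SE, edgeR adjusted p = 1.43e-05). No difference was called for Ins1 (−0.61, 95% interval −1.51 to 0.30), Ins2 (0.96, 0.07 to 1.85, edgeR adjusted p = 0.0774), G6pc2 (0.09, −0.86 to 1.04) or Nkx6-1 (−0.055, −0.26 to 0.15). Ins2 passed the threshold in 4 of 15 fits with 1 library omitted (wt 1, S1pr2 null 3, JTE 3 and JTE with CTGF 1), with values of 0.96 to 1.37, and also without the filter on low counts (edgeR adjusted p = 0.00347) and with the libraries of this contrast alone (edgeR adjusted p = 0.0481). The settings differ in stage, in culture and in whether the receptor gene was disrupted or the receptor blocked, and these cannot be told apart. The dissected part of the organ may differ as well. Explants were dorsal buds, and the part is not given for the uncultured pancreata.

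With CTGF added to JTE, Ins1 and Ucn3 were higher than with JTE alone, but Ins1 remained far below control. Compared with control, 6 genes were lower and 1 was higher in explants with JTE and CTGF, the same counts as for JTE alone, against 33% lower and 28.1% higher among all genes tested. Both inhibitor groups were set against the same 3 control libraries. Ins1 stood at 996, 1794 and 2002 normalised reads with JTE and CTGF, all above the JTE explants by 2.28-fold on average (1.19 ± 0.25 SE, edgeR adjusted p = 0.00184) and 10.9-fold below control. Ins2 stood at 1693, 3202 and 3392, which overlaps JTE (0.52, 95% interval −0.01 to 1.05, edgeR adjusted p = 0.131). Without the library JTE with CTGF 1 the Ins2 value was 0.78 and passed the threshold (edgeR adjusted p = 0.0188), as it did without the filter on low counts (0.55, edgeR adjusted p = 0.00725).

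Of the 8 genes, 2 were called lower (Mafa and Slc2a2) and 2 higher (Ins1 and Ucn3) with JTE and CTGF than with JTE alone, against 16.8% lower and 13.6% higher among all genes tested. Mafa stood at 76.6, 102 and 102 normalised reads, which overlaps JTE (−0.58 ± 0.21 SE, edgeR adjusted p = 0.0472), and 11 of 15 fits with 1 library omitted lost its call, as did DESeq2 (adjusted p = 0.054). Only the fits without wt 1, wt 2, wt 3 or JTE 3 kept it. Slc2a2 stood at 438, 554 and 481, all below JTE (−0.29 ± 0.09 SE, edgeR adjusted p = 0.0299), and its call was lost without JTE 1, JTE with CTGF 1 or JTE with CTGF 3 (edgeR adjusted p of 0.0941 to 0.13). Ucn3 was 2.52-fold higher (1.32 ± 0.30 SE, edgeR adjusted p = 0.00348). Iapp (6207, 6504 and 8134 normalised reads), G6pc2 (37.7, 56.1 and 86.5) and Nkx6-1 (2326, 2145 and 2371) gained no call, with 95% intervals of −0.08 to 0.52, −0.27 to 1.02 and −0.10 to 0.19.

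Most of the genes were higher in cultured than in uncultured wt tissue. In control explants against wt pancreata, 6 genes were higher, 1 was lower (Nkx6-1) and Ucn3 was not called, against 28.5% higher and 29.3% lower among all genes tested. The median was 2.60 over the 8 genes and −0.02 over all genes. Iapp rose 9.38-fold, Mafa 6.22-fold and G6pc2 5.08-fold, and Nkx6-1 was 1.22-fold lower (−0.29 ± 0.07 SE, edgeR adjusted p = 0.00175). Relative to insulin, Iapp, Mafa, Slc2a2 and G6pc2 were each lower in control explants than in wt, by 1.37-fold, 2.03-fold, 2.23-fold and 2.59-fold. Markers of other cells differed as well. All 6 erythroid genes were lower in control explants (median −5.63, summed level 114 to 351 normalised reads against 8363 to 10604 in wt). Of the other lists, 4 of 6 acinar genes were higher (578008 to 769881 against 77913 to 132717), as were 4 of 6 pan-endocrine genes (18551 to 21118 against 11314 to 11993), 4 of 5 duct genes (22154 to 25928 against 13609 to 15276) and 3 of 4 macrophage genes (1453 to 1756 against 816 to 897). Also higher were 3 of 5 epithelial and 2 of 2 delta genes. In contrast, 3 of 4 endocrine progenitor genes were lower and 0 higher (1329 to 1520 against 3428 to 3725). Of 5 alpha genes, 2 were lower and 0 higher. Of 4 endothelial genes, 2 were lower and 1 higher, and of 6 mesenchymal genes, 2 were lower and 3 higher. Of 4 neural genes, 1 was lower. Their part in the values of the 8 genes was not tested. Stage and culture differ together here and cannot be told apart, nor can the dissected part of the organ, which may differ as well.

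Levels per kilobase of exon allow the genes to be ranked against each other, as far as the exon lengths of the count table go. These lengths differ in how much they hold beyond the coding sequence. Mafa has 1080 exon bases for 1077 coding ones, Ins1 1016 for 324 and Ins2 810 for 330. The part of these lengths in the order was not tested. In wt, Ins2 came first (2633 ± 897 normalised reads per kb, SD, n = 3), then Ins1 (1218 ± 451), Iapp (1101 ± 284) and Nkx6-1 (759 ± 27.4), with Slc2a2 (65.6 ± 4.77), Mafa (49.5 ± 20.9), G6pc2 (30.1 ± 5.05) and Ucn3 (2.73 ± 0.721) far below. Ins1 and Iapp overlapped, as did Slc2a2 and Mafa. In the libraries labelled S1pr2 null, Nkx6-1 came first (829 ± 26.0), and Iapp, Ins2, Slc2a2 and Ins1 followed at 107, 103, 79.3 and 73.8 with overlapping libraries. In control explants the order of wt held, with no overlap between neighbours and with Ins2 at 30811 ± 1814. With JTE, Iapp came first (6111 ± 368), ahead of Ins2 (2378 ± 529), and Ins1 (691 ± 167) overlapped Nkx6-1 (654 ± 69.9). With JTE and CTGF the order was that of JTE, with Iapp at 7134 ± 1065.

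Libraries of a group also varied together in these genes. The library wt 2 held the most Ins1, Ins2, Iapp, Mafa, Nkx6-1 and G6pc2 of the wt libraries and not the most Slc2a2. For Ucn3, wt 1 and wt 2 held 5 reads each. The library JTE 3 held the least of 7 of the 8 genes among the JTE libraries, with Ucn3 as the exception. JTE with CTGF 1 held the least Ins1, Ins2, Iapp, Mafa, Slc2a2 and G6pc2 of its group. In JTE 3 the summed acinar markers were also lowest (573574 normalised reads, against 910112 and 1038270), as were the epithelial ones (20690 against 24970 and 26043), while the mesenchymal ones were highest (171118 against 139159 and 149010). Their part in the values of JTE 3 was not tested. Without JTE 3 the log2 fold changes from control were −4.45 for Ins1, −3.53 for Ins2, −0.71 for Iapp, −1.06 for Mafa, −0.80 for Slc2a2 and −2.39 for G6pc2, all still called.

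Markers of other cells moved as well, and each count is to be read against the share of all genes tested. That share was 13.3% lower and 12.6% higher in the libraries labelled S1pr2 null, and 26.2% lower and 25.9% higher with JTE. In the libraries labelled S1pr2 null all 5 epithelial markers were lower than in wt (summed level 14799 to 15556 normalised reads, against 21049 to 23277), all 6 pan-endocrine genes were lower (5802 to 6586 against 11314 to 11993), and all 6 acinar genes were lower (26584 to 28893 against 77913 to 132717). In JTE explants 3 of 5 epithelial markers and 5 of 6 pan-endocrine genes were lower (10867 to 11971 against 18551 to 21118), 4 of 5 duct markers, 4 of 4 macrophage markers and 4 of 4 endothelial markers were lower, and 0 of 6 acinar genes were called. In the libraries labelled S1pr2 null, 1 of 5 duct markers was lower, and 0 of 4 endothelial and 0 of 4 macrophage markers were called. Of 6 mesenchymal markers, 2 were lower and 2 higher there, and 1 was lower and 2 higher with JTE. Of 6 erythroid genes, 1 was lower and 2 higher in the libraries labelled S1pr2 null, and 0 were called with JTE. No marker of these lists was at 0 throughout a group. Insulin was also lower per pan-endocrine read (Chga, Chgb, Scg2, Scg3, Pcsk2 and Scg5 summed). That ratio was 11.4-fold below wt in the libraries labelled S1pr2 null and 9.64-fold lower with JTE than in control, with no overlap (exact permutation p = 0.1 each, the smallest possible, adjusted p = 0.125 over 5 comparisons).

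Lists of related genes, 5 in all, place the 8 genes among their partners. Each count is to be read against all genes tested, of which 13.3% were lower and 12.6% higher in the libraries labelled S1pr2 null (median −0.01), and 26.2% lower and 25.9% higher with JTE (median 0). Of the 14 genes of prohormone processing and the secretory granule, all 14 were lower in the libraries labelled S1pr2 null (median −0.99), and 11 were lower and 1 higher with JTE (median −0.64). This list holds all of the pan-endocrine genes counted above, so the counts of those lists are not separate. The convertase Pcsk1, which cuts proinsulin, changed by −1.45 ± 0.11 and −0.98 ± 0.09 (log2, SE, edgeR adjusted p = 9.62e-08 and 9.97e-08). Pcsk2, a second convertase, changed by −1.47 and −0.72, and the granule proteins Scg2 and Pcsk1n by −1.34 and −0.76 in the libraries labelled S1pr2 null and by −1.68 and −0.997 with JTE, all called. Scg3 was lower in the libraries labelled S1pr2 null (−1.37, edgeR adjusted p = 1.56e-07), while its JTE value of −0.08 was not called (edgeR adjusted p = 0.448). The gene that was higher with JTE was Ptprn (0.49, edgeR adjusted p = 1.16e-04), which is named after its value was seen.

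Of 21 tested genes of glucose sensing and insulin secretion (Prlr did not pass the filter on low counts), 15 were lower in the libraries labelled S1pr2 null (median −0.56), against 13.3% lower among all genes, and 10 were lower and 1 higher with JTE (median −0.20), against 26.2% lower and 25.9% higher among all genes. Slc30a8, the zinc transporter of insulin granules, changed by −2.54 ± 0.26 and −1.65 ± 0.14 (log2, SE, edgeR adjusted p = 3.38e-06 and 6.03e-08). The fatty acid receptor Ffar1 changed by −1.52 and −2.04, the incretin receptor Glp1r by −1.16 and −1.05, and the granule protein Sytl4 by −0.90 and −1.39, all called. The single gene higher with JTE was Syt7 (0.38, edgeR adjusted p = 1.58e-05), named after its value was seen. Of 9 tested genes of adult beta cell maturity, which share 7 tested genes with the previous list or the granule list, 7 were lower in the libraries labelled S1pr2 null (median −0.91), and 6 were lower and 1 (Esrrg, 0.86, edgeR adjusted p = 1.9e-05) was higher with JTE (median −0.43).

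Of 18 transcription factors of the beta cell lineage, 12 were lower in the libraries labelled S1pr2 null and 0 higher (median −0.37), against 13.3% lower among all genes, and 11 were lower and 1 higher with JTE (median −0.28), against 26.2% lower and 25.9% higher. In the libraries labelled S1pr2 null Pax6 (−0.97) and St18 (−0.72) were among the genes with the largest falls, with edgeR adjusted p of 5.08e-06 and 2.87e-04. With JTE the largest falls were those of Pax4 (−1.50), Mnx1 (−1.23) and Hnf4a (−1.04), with edgeR adjusted p of 7.57e-06, 1.66e-06 and 4.51e-06. Pdx1, which activates insulin and marks the pancreatic epithelium, was not called between the genotypes (−0.17, edgeR adjusted p = 0.139) and was lower with JTE (−0.67 ± 0.08 SE, edgeR adjusted p = 3.61e-06). Nkx2-2 behaved likewise (−0.13, edgeR adjusted p = 0.167, and −0.61, edgeR adjusted p = 3.17e-06), and Neurod1 was lower in both (−0.66 and −0.32, edgeR adjusted p = 2.19e-04 and 0.00924). The factor that was higher with JTE was Glis3 (0.30, edgeR adjusted p = 0.00329), named after its value was seen.

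The 5 other islet hormones were all lower in the libraries labelled S1pr2 null (median −1.43), against 13.3% lower among all genes tested. With JTE 4 were lower (median −0.86), against 26.2% lower and 25.9% higher among all genes tested. Somatostatin (Sst), the hormone of delta cells, changed by −3.74 ± 0.31 in the libraries labelled S1pr2 null (log2, SE, edgeR adjusted p = 3.77e-07), and its JTE value of −0.19 was not called (edgeR adjusted p = 0.203). Glucagon (Gcg), the hormone of alpha cells, changed by −0.80 and −1.01 (edgeR adjusted p = 0.00306 and 1.55e-04). Pancreatic polypeptide (Ppy) changed by −1.43 and −1.88, Pyy by −0.72 and −0.86, and ghrelin (Ghrl) by −1.43 and −0.47, all called. Ins1 and Ins2 fell by more than each of these hormones in both comparisons as fitted, without a test of that difference.

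**Figure D4:**
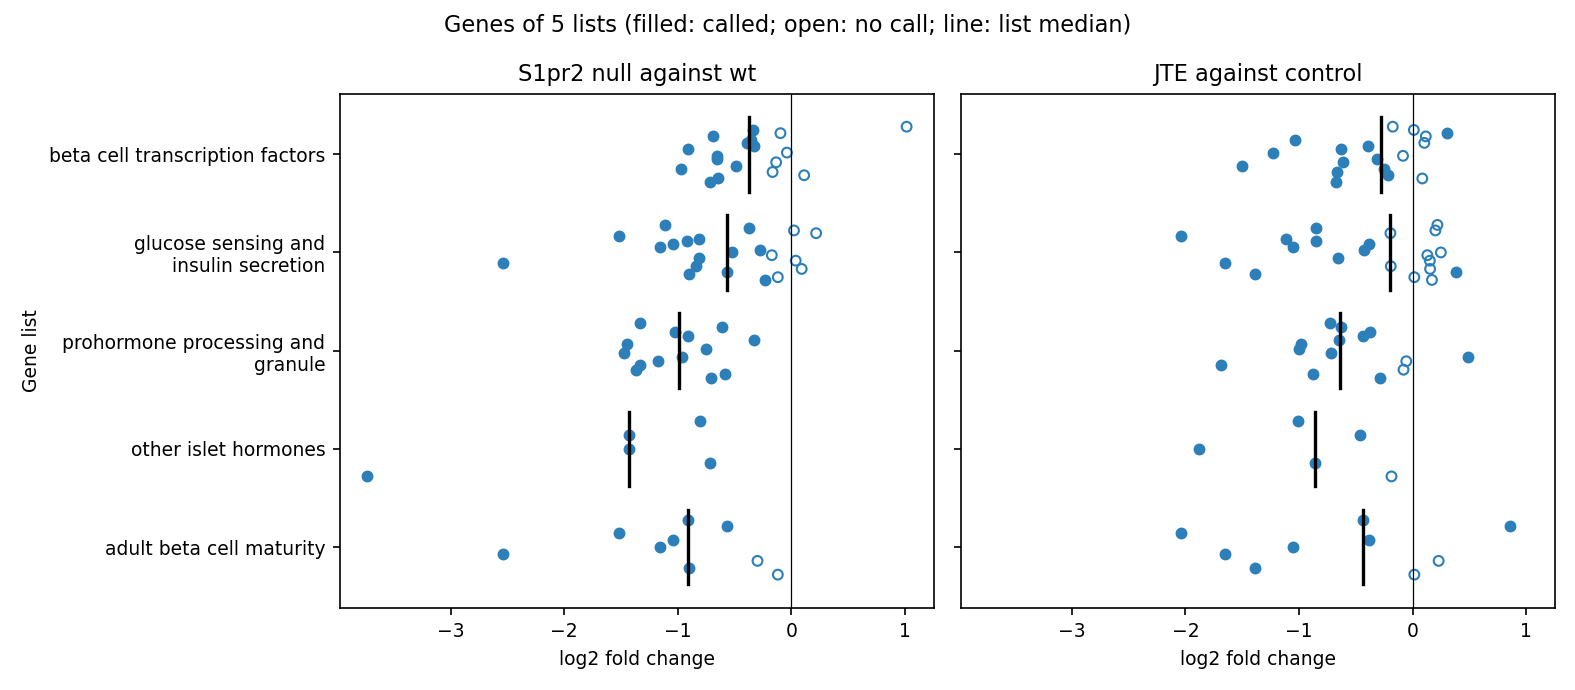
Fitted log2 fold changes of the tested genes of 5 lists in the libraries labelled S1pr2 null against wt (left) and in JTE explants against control (right), on one scale. Filled points passed an adjusted p of 0.05, open points did not, and black lines mark list medians, which run from −1.43 to −0.37 on the left and from −0.86 to −0.20 on the right.

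Among 10986 protein-coding genes with a mean of at least 100 normalised reads that are none of the 8, those whose pattern was most like insulin over the 15 libraries were Atp2a3, Pdlim1, Abcb9, Adra2a, Cib1, Maob, Ang, Pcsk1, Camk2b and Gpd1. Their Pearson r with the mean log2 insulin level ran from 0.961 to 0.981, below that of G6pc2. Their changes were smaller than those of insulin. Atp2a3, a calcium pump of the endoplasmic reticulum, changed by −0.92 in the libraries labelled S1pr2 null and −0.84 with JTE, and Gpd1, a dehydrogenase of glycerol phosphate, by −1.58 and −2.05.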

How the data were processed

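Poly(A) RNA of 15 strand-specific libraries of embryonic mouse pancreas was analysed in 5 groups of 3, assigned from the sample titles. The authors aligned the reads to mm10 with GSNAP, using Ensembl annotation, and deposited raw read counts per gene made with featureCounts 1.4.6 (bcl2fastq 1.8.4 and DESeq2 1.6.2 are also named in the submitters' processing notes). The counts were not normalised. Whether counting used the strand is not given in the sources used here. The spans of Iapp and Slc2a2 meet another gene on the opposite strand but share no exon base with it. Symbols from GENCODE M21 were found for 24750 of 25292 identifiers (97.9%), and every column of the table belonged to 1 sample.

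The test was the quasi-likelihood one of edgeR 4.0.16 in R 4.3.3, fitted to all 15 libraries together with a term for each group and no covariate, after TMM scaling and filterByExpr, and with Benjamini-Hochberg adjustment over 16245 genes and a call at an adjusted p below 0.05. The biological coefficient of variation was 7.3%. Normalised reads are counts scaled to the mean TMM-adjusted library size. Ratios within a library were taken as log2 with a pseudocount of 1 and compared by 2-sided exact permutation, which cannot go below 0.1 with 3 against 3 libraries. A group ratio is the value at the mean log2. Intervals of counts cover counting error only. Depth was similar across groups, and counting error dominates for genes with few reads, such as Ucn3. The fit was tested on simulated counts. DESeq2 1.42.0 and the other alternatives are given in the closing section. Coding sequences came from GENCODE M21 transcripts and were aligned with Biopython 1.88. Transcripts with a consensus coding sequence (CCDS) tag were preferred, and the longest coding sequence was then taken for each gene. Promoters came from RefSeq in mm10.

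The genes, lists and tests were chosen with earlier results of these data known. Genes named from a list are the 3 with the largest change among those called with groups that do not overlap, in the libraries labelled S1pr2 null and in JTE explants, plus Pdx1, Neurod1, Nkx2-2, Gcg, Sst and Ghrl. Some genes that this rule names are not reported here. Genes named for a pattern like insulin are the 10 with the highest Pearson r among protein-coding genes with a mean of at least 100 normalised reads.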

Additional observations from a re-analysis of the deposited data

Results flagged for a closer look

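For 4 of the 8 genes the response to JTE differed from that of the null genotype by the interaction test of edgeR, by 2.59 for Iapp, 1.48 for Mafa, 3.03 for Ucn3 and −1.10 for Slc2a2 on the log2 scale, with adjusted p of 3.85e-07, 0.00889, 0.00431 and 1.43e-05. Of all genes tested, 21.5% were called lower and 21.5% higher in this contrast, so the number of genes called is near that background. For Ucn3 this rests on 0 to 12 reads per library. The share of Ins1 in the insulin pair moved in opposite directions, with every library labelled S1pr2 null above wt and every JTE library below control, a difference of −1.63 on the log2 scale that was not tested.

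Among the partner genes named in the report, 7 had a response to JTE that lay above that of the null genotype, namely Sst (3.55), Scg3 (1.29), Ghrl (0.97), Slc30a8 (0.89), Pcsk2 (0.76), Pax6 (0.73) and Pcsk1 (0.47), with edgeR adjusted p of 6.72e-07 to 0.0294. It lay below for Mnx1 (−1.19), Pax4 (−1.01), Hnf4a (−0.68), Pdx1 (−0.50), Sytl4 (−0.49) and Nkx2-2 (−0.47), with edgeR adjusted p of 1.14e-04 to 0.00955. Most of these genes were named for a large fall in one of the 2 comparisons, a choice that favours the direction given here, and with 21.5% lower and 21.5% higher among all genes tested the values are a description.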

How the results depend on the processing

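Of 1004 recomputed fold changes of the 8 genes, 952 kept direction and side of the threshold, over DESeq2, RLE size factors, library totals, no filter, the libraries of the comparison alone, the replicate block and each of 15 libraries left out. Another 35 lost a call, 13 gained one and 4 changed sign. Those that changed sign were not called under any setting of that contrast, the JTE response minus the genotype response. They were G6pc2 without wt 2 (−0.055), S1pr2 null 2 (−0.20) and JTE 2 (−0.20), and Nkx6-1 without JTE 3 (0.033). Over the omitted libraries that contrast ran from −0.20 to 0.54 for G6pc2 and from −0.12 to 0.033 for Nkx6-1. All calls of Ins1, Ins2, Iapp, Mafa and G6pc2 in the libraries labelled S1pr2 null and in both inhibitor groups against control were kept. Lost calls were those of Ucn3, and of Mafa and Slc2a2 in JTE with CTGF against JTE. There the number of genes called was 4, and it was 2 where only the libraries of that comparison were fitted. Without the filter on low counts it was 5. It was 2 to 4 over the fits that left out 1 library (2 without JTE 1 and without JTE with CTGF 3). Ucn3 could not be fitted in 4 contrasts with the libraries of the comparison alone, because it did not pass the filter. All 380 recomputed ratios kept their direction under other pseudocounts, references and left-out libraries. Replicate numbers did not pair the libraries (correlations of deviations from −0.08 to 0.23), and the replicate block changed 1 call, that of Ucn3 in JTE against control (1.03, adjusted p = 0.0559). Scaling by library totals moved the median of all genes in control against wt by more than 0.1, to −0.167. The list counts were recomputed under the same settings, chosen after seeing the data. At this depth genes under about 10 reads, such as Ucn3 and, in the libraries labelled S1pr2 null, Mafa and G6pc2, are limited by counting error. The causes of these changes were not tested.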
